A study of Homo sapiens with 12 samples.

Results

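The 38 genes described here encode proteins that mend DNA double-strand breaks and interstrand crosslinks. They were taken by symbol from a list of known members of these pathways, and all 38 were found among the 59611 gene symbols of the counts table. They fall into 4 pathways, with 16 genes of homologous recombination, 10 of the Fanconi anaemia crosslink pathway, 4 helicases and dissolution factors, and 8 of end joining. All 38 genes also passed the filter on low counts, which kept 15218 genes for testing.

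Messenger RNA was sequenced from 2 cell lines of B-cell acute lymphoblastic leukaemia, 697 and KOPN-8, grown in RPMI1640 medium with fetal bovine serum. The control of each line carried an empty guide RNA vector and is labelled SETD2 WT. The other group of each line is 1 clone labelled SETD2 heterozygous KO, clone BM_B in 697 and clone BA in KOPN-8, and is called edited below. No drug or irradiation is named in the labels. Each of the 4 groups had 3 libraries called biological replicates, and the labels say no more on how these were kept apart, so p-values measure the spread between these libraries. With 1 clone per line, an effect of the SETD2 edit and any other difference of the clone cannot be told apart.

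A double-strand break can be repaired by homologous recombination, in which the ends are cut back and copied from the sister chromatid, or by end joining, in which Ku and its partners ligate the ends with little processing. Fanconi anaemia proteins detect a crosslink that stalls a replication fork, mark it by ubiquitination of FANCD2 and FANCI, and hand the unhooked break to recombination. SETD2 trimethylates histone H3 at lysine 36 in transcribed genes, a mark known to help recombination proteins load at breaks, and B-lineage cells use end joining to assemble their immunoglobulin genes.

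Library totals ran from 10378769 to 18278662 counts. SETD2 mRNA stood at 156, 158 and 169 CPM (counts scaled to the library total) in control 697 libraries and at 207, 211 and 238 CPM in edited ones. The 697 values did not overlap and were higher in the edited clone by 0.44 on the log2 scale (SE 0.0692, edgeR adjusted p = 0.000103), against the direction of its label. In KOPN-8, SETD2 stood at 159, 171 and 177 CPM in controls and at 161, 151 and 162 CPM in the edited clone, a log2 difference of -0.10 that did not pass the test (SE 0.0689, edgeR adjusted p = 0.309). Gene counts do not show the alleles, so these values do not check the edit itself. The 8 B-lineage markers summed to 2101 to 2319 CPM in 697, to 2702 to 2792 CPM in control KOPN-8 and to 3190 to 3279 CPM in edited KOPN-8. The 6 T-cell markers, with CD3D and CD8A at 0, summed to 77.6 to 95.9 CPM in control and 49.2 to 59.6 CPM in edited KOPN-8, and the 6 myeloid markers, with ELANE at 0 (and MPO and CSF1R at 0 in the edited clone), to 46.3 to 47.2 and 36.3 to 44.8 CPM. Both sums were at most 2.18 CPM in 697, and the 5 erythroid markers were at or near 0 in every library. The KOPN-8 groups did not overlap in these 3 sums. HOXA9, a target of the KMT2A fusion that KOPN-8 carries, had 0 counts in 697 and 147 and 119 CPM on average in control and edited KOPN-8.

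Levels of the 38 genes differed widely within each line. To compare genes, CPM was divided by the kilobases of merged exons of each gene. This was done for 35 genes, leaving out RAD50, NHEJ1 and RAD54B, which share 79.7%, 65.4% and 59.1% of their exon bases with another gene of the same strand, so that reads may be split or dropped. In control 697 the 35 levels ran from 1.55 to 142 CPM per kb with a median of 12.3, and in control KOPN-8 from 2.09 to 143 with a median of 11.1.

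End joining genes held the top of this order in both lines. XRCC5 and XRCC6, the Ku80 and Ku70 subunits that ring a broken end, stood at 142 ± 7.33 and 135 ± 3.45 CPM per kb (SD, n = 3) in control 697. In control KOPN-8 the pair stood at 124 ± 3.02 and 143 ± 3.24 CPM per kb. PRKDC, the DNA-dependent protein kinase catalytic subunit that Ku recruits, followed at 48.3 ± 3.08 CPM per kb in control 697 and 45.9 ± 3.51 in control KOPN-8. FANCI, a subunit of the ubiquitinated FANCD2-FANCI clamp, came next at 29.9 ± 2.72 and 44.5 ± 2.74 CPM per kb. In control KOPN-8 the values of PRKDC and FANCI overlapped within their SD, whereas in control 697 they did not. The lowest levels were those of RAD51B in control 697, at 1.55 ± 0.103 CPM per kb, and FANCC in control KOPN-8, at 2.09 ± 0.126. RAD51B is a mediator of recombination and FANCC a subunit of the Fanconi core complex.

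**Figure D1:**
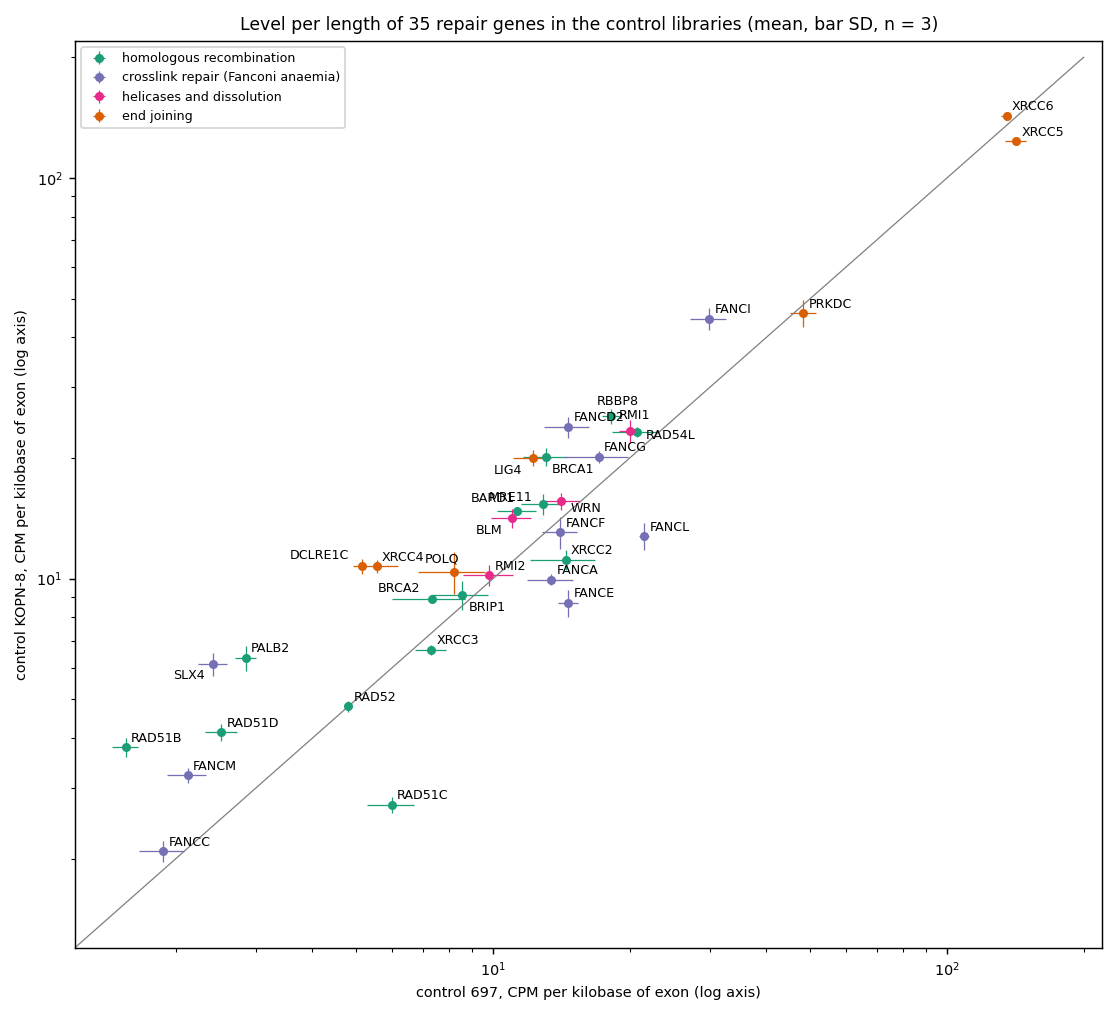
Level per exon length of 35 repair genes in control 697 (x axis) against control KOPN-8 (y axis), both in CPM per kilobase on log axes; points are means, bars the SD of 3 libraries, colours the pathway and the line equal levels. XRCC5, XRCC6 and PRKDC lie at the top near the line, RAD51C, FANCE and FANCL lie below it, and SLX4, PALB2 and RAD51B lie above it.

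The 2 control groups were compared first, to give the levels of each line before those of its edited clone. In bulk RNA, fewer cells expressing a gene and less RNA per cell cannot be told apart. Of the 38 genes, 21 were higher and 6 were lower in control KOPN-8 than in control 697 (edgeR quasi-likelihood test, Benjamini-Hochberg adjusted p under 0.05, called below). Over all genes tested 73.3% were called, 36.6% higher and 36.7% lower. The median log2 difference of the 38 genes was 0.27, and that of all genes was -0.01. In 27 of the 38 genes the control libraries of the lines did not overlap, against 76.3% of all genes.

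Recombination genes accounted for 10 of the 21 that were higher. PALB2, which bridges BRCA1 to BRCA2, stood at 14.3, 12.9 and 13.3 CPM in control 697 and at 28.6, 29.2 and 32.5 CPM in control KOPN-8, a log2 difference of 1.16 (SE 0.105, edgeR adjusted p = 5.45e-10). RAD51B stood at 11.3, 12.5 and 10.998 CPM against 26.9, 28.3 and 29.9 CPM, a log2 difference of 1.29 (SE 0.115, edgeR adjusted p = 3.73e-10). Its partner RAD51C went the other way, at 32.8, 34.9 and 41.1 CPM in control 697 and 15.7, 17.1 and 17.0 CPM in control KOPN-8, a log2 difference of -1.13 (SE 0.101, edgeR adjusted p = 4.64e-10). The lines did not overlap for any of these 3 genes. RAD51D, the protein that joins RAD51B and RAD51C with XRCC2 in one complex, was higher in KOPN-8 by 0.72, and XRCC2 was lower by 0.37 (edgeR adjusted p = 3.02e-08 and 0.00374).

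RAD50, the coiled-coil ATPase that tethers broken ends together with MRE11, had the largest log2 difference of the 38 genes between the control groups. Its counts were 22, 15 and 18 in control 697 libraries and 138, 190 and 203 in control KOPN-8 libraries. These correspond to 1.44, 0.908 and 1.36 CPM against 10.2, 11.1 and 11.03 CPM, a log2 difference of 3.13 (SE 0.200, edgeR adjusted p = 6.30e-13). MRE11 itself stood at 104, 87.0 and 106 CPM in control 697 and was higher in KOPN-8 by only 0.26 (SE 0.0752, edgeR adjusted p = 0.00397). The RAD50 value is uncertain, because the annotated gene AC116366.3 shares most of its exon bases on the same strand. That gene itself had a mean of 0.0453 CPM in control 697 and 0.0247 CPM in control KOPN-8.

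Among crosslink genes, SLX4, the scaffold of structure-specific nucleases that unhook crosslinks, stood at 19.6, 20.2 and 22.4 CPM in control 697 and 48.8, 53.1 and 55.8 CPM in control KOPN-8. This log2 difference of 1.35 (SE 0.0876, edgeR adjusted p = 9.74e-13) set the lines far apart with no overlap. FANCD2, FANCI, FANCM and FANCG were also higher in KOPN-8, by 0.71, 0.58, 0.61 and 0.24. The core complex genes FANCA, FANCE and FANCL were lower by 0.43, 0.75 and 0.75, with edgeR adjusted p values of 4.76e-05, 5.34e-07 and 4.93e-09. FANCL is the ubiquitin ligase that marks FANCD2, and FANCE binds FANCD2 to the complex.

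Among end joining genes, DCLRE1C, the Artemis nuclease that opens hairpin ends, stood at 31.7, 32.9 and 32.8 CPM in control 697 and 64.5, 70.5 and 68.7 CPM in control KOPN-8. It was higher in KOPN-8 by 1.07 (SE 0.0725, edgeR adjusted p = 2.32e-12), with no overlap. XRCC4 and LIG4, the partners that seal the ends, were higher in KOPN-8 by 0.95 and 0.71, and POLQ, the polymerase of microhomology-mediated joining, by 0.35. XRCC5 was lower by 0.20 (SE 0.0675, edgeR adjusted p = 0.0113), whereas XRCC6 and PRKDC differed by 0.08 and -0.07 and were not called. Both helicase calls were higher in KOPN-8, with BLM at 0.37 and RMI1 at 0.22. Of the 27 calls between the control groups, 24 held in all 12 fits without 1 library; that of RMI1 was lost without the second KOPN-8 control, that of FANCG without the first 697 or the third KOPN-8 control, and that of BRCA2 without the first or the second 697 control and without the second or the third KOPN-8 control.

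In 697, 3 of the 38 genes were called between the edited clone and its control, against 9.45% of all genes tested. RAD50 and FANCM were higher and XRCC3 was lower, where 4.85% and 4.6% of all genes were called in those directions. The other 35 were not called. An unadjusted edgeR p under 0.05 was found for 10 of the 38 genes, beside 3382 of all 15218 genes tested. The median log2 change of the 38 genes was 0.04, beside 0 for all genes. In 7 of the 38 genes the groups did not overlap, against 24.1% of all genes. The log2 changes of the genes not called ran from -0.25 for LIG4 to 0.24 for PALB2 and RMI2. None of the 3 calls held in all 12 fits that each left out 1 library: FANCM was called in 3 of the 12, XRCC3 in 5 and RAD50 in 9.

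FANCM, the translocase that anchors the Fanconi core complex to DNA, stood at 17.7, 16.4 and 19.9 CPM in control 697 and 22.1, 20.2 and 26.2 CPM in the edited clone. Each edited value lay above each control value, the closest pair being 20.2 and 19.9 CPM. The log2 change was 0.34 (SE 0.107, edgeR adjusted p = 0.0436), and its adjusted p ran from 0.00936 to 0.233 over 19 alternative fits, of which 9 kept the call. The third edited library was the highest of the 6, and without it the change was 0.24 (edgeR adjusted p = 0.233).

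XRCC3, which pairs with RAD51C in recombination, stood at 50.6, 54.5 and 59.2 CPM in control 697 and 46.7, 44.9 and 46.6 CPM in the edited clone. All edited values were below all control values. The log2 change was -0.25 (SE 0.0750, edgeR adjusted p = 0.0358), with an adjusted p from 0.0133 to 0.16 over 19 alternatives, of which 10 kept the call. KLC1, a kinesin light chain gene on the opposite strand whose exons cover 5756 of the 7507 exon bases of XRCC3, had a log2 change of -0.21 in 697 (edgeR adjusted p = 0.171). The libraries were stranded, but the strand setting of the counting is not given in the sources used here, so a part of the XRCC3 reads may belong to KLC1.

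RAD50 stood at 1.44, 0.908 and 1.36 CPM in control 697 and 1.93, 1.84 and 3.02 CPM in the edited clone, from 15 to 22 and 25 to 31 counts. The edited values did not overlap the controls, with 1 edited library well above the other two. The log2 change of 0.85 had an SE of 0.259 (edgeR adjusted p = 0.0372), and it was not called without the second control library, the third control library or the third edited library, where the adjusted p was 0.179, 0.061 and 0.213. AC116366.3, its same-strand neighbour, had 0.487 CPM in that library and 0 in the other two edited ones.

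Among the 35 genes not called in 697, LIG4 and BLM came nearest. LIG4, the DNA ligase of end joining, stood at 50.7, 50.9 and 59.7 CPM in controls and 46.3, 40.3 and 49.5 CPM in edited libraries (log2 change -0.25, SE 0.0863, edgeR adjusted p = 0.0774). BLM, the helicase that dissolves double Holliday junctions with RMI1 and RMI2, stood at 65.5, 74.7 and 80.2 CPM in controls and 83.5, 78.6 and 93.2 CPM in edited libraries (log2 change 0.21, SE 0.0800, edgeR adjusted p = 0.106). LIG4 values did not overlap, and those of BLM did. A replicate block in the fit treated same-numbered libraries as pairs in both lines. In 697 this rests on a correlation just over its limit, and in KOPN-8 the correlations were below it. A fit with pairs in 697 only was not run. With the block, 5 of the 38 genes were called in 697, the further ones being BLM (0.21, edgeR adjusted p = 0.0235) and LIG4 (-0.24, edgeR adjusted p = 0.0138). Over 19 alternatives the adjusted p ran from 0.0235 to 0.379 for BLM and from 0.0138 to 0.308 for LIG4. The same block raised the calls over all genes from 1438 to 2319.

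BRCA1 and BRCA2 were not called in 697. BRCA1 stood at 107, 122 and 133 CPM in controls and 124, 122 and 129 CPM in edited libraries, a log2 change of 0.06 with a 95% interval from -0.10 to 0.21. BRCA2, a mediator of strand exchange, stood at 73.2, 90.0 and 106 CPM against 79.7, 86.3 and 105 CPM, a change of 0.00 with an interval from -0.23 to 0.24. The groups overlapped for both genes. The Ku genes XRCC5 and XRCC6 had log2 changes of 0.14 and -0.03 and were not called.

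**Figure D2:**
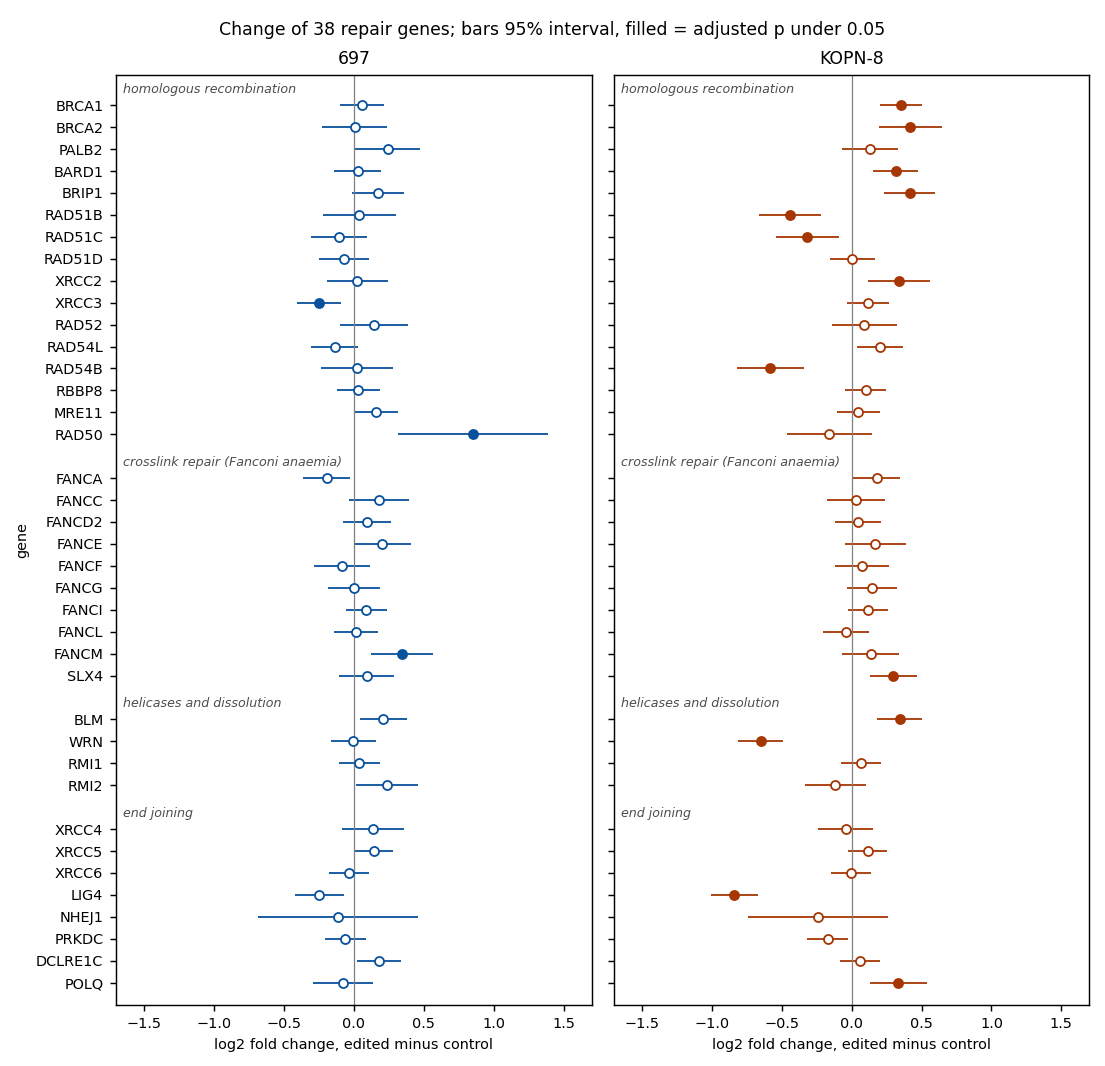
Log2 fold change, edited minus control, of the 38 repair genes (y axis, grouped by pathway) in 697 (left) and KOPN-8 (right); points are edgeR estimates, bars the 95% interval, and filled points have an adjusted p under 0.05. In 697 there are 3 filled points, XRCC3, RAD50 and FANCM; in KOPN-8 there are 13, from LIG4 at -0.84 to BRCA2 and BRIP1 at 0.42.

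In KOPN-8, 13 of the 38 genes were called between the edited clone and its control, against 28.7% of all genes tested. Of these, 8 were higher (BRCA1, BRCA2, BARD1, BRIP1, XRCC2, SLX4, BLM and POLQ), where 11.5% of all genes were called higher. The other 5 were lower (RAD51B, RAD51C, RAD54B, WRN and LIG4), where 17.2% of all genes were called lower. The median log2 change was 0.08, beside 0 for all genes, and 21 of the 38 genes had no overlap between the groups, against 45.1% of all genes. The other 25 genes were not called, with log2 changes from -0.24 for NHEJ1 to 0.20 for RAD54L. RAD54L (edgeR adjusted p = 0.0556) passed the threshold in 10 of 19 alternatives, with an adjusted p from 0.00985 to 0.21. Marker genes moved between the same KOPN-8 groups, with 5 of the 8 B-lineage markers called higher and 1 lower (VPREB1, by 0.26). TRAC, the only T-cell marker tested, was called lower by 0.69. Of 3 myeloid markers tested, 1 was called higher and 1 lower, and their log2 changes ran from -2.57 to 2.48. Between the 697 groups, 2 of the 8 B-lineage markers were called higher and 1 lower. The part of these shifts in the results was not tested.

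BRCA1 and its partners BARD1 and BRIP1 were higher in edited KOPN-8, while PALB2 and RBBP8, which also bind BRCA1, were not called, and ABRAXAS1, a scaffold of the BRCA1-A complex, was lower by 0.33. BRCA1, the ubiquitin ligase that promotes end resection, stood at 175, 194 and 185 CPM in controls and 244, 237 and 226 CPM in edited libraries. BARD1, its obligate partner, stood at 88.4, 90.7 and 88.7 CPM against 116, 115 and 103 CPM. BRIP1, the helicase that binds BRCA1, stood at 66.3, 73.3 and 78.3 CPM against 104, 92.0 and 94.8 CPM. For each of these 3 genes every edited library lay above every control library. The log2 changes were 0.35 for BRCA1 (SE 0.0723, edgeR adjusted p = 0.000565), 0.32 for BARD1 (SE 0.0779, edgeR adjusted p = 0.00316) and 0.42 for BRIP1 (SE 0.0881, edgeR adjusted p = 0.000786).

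BRCA2 stood at 106, 111 and 109.6 CPM in control KOPN-8 and 143, 141 and 152 CPM in the edited clone, without overlap and with a log2 change of 0.42 (SE 0.106, edgeR adjusted p = 0.00569). PALB2, which links it to BRCA1, stood at 28.6, 29.2 and 32.5 CPM against 36.1, 29.996 and 32.7 CPM; the groups overlapped and the change of 0.13 was not called (SE 0.0967, edgeR adjusted p = 0.353). The calls of BRCA1, BRCA2, BARD1 and BRIP1 held in each of 19 alternative fits. RBBP8 and MRE11, which together begin resection, had log2 changes of 0.10 and 0.05 and were not called.

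The genes RAD51B, RAD51C, RAD51D, XRCC2 and XRCC3, whose products form the mediator complexes of recombination, did not move as one. XRCC2 stood at 51.3, 53.5 and 57.4 CPM in control KOPN-8 and 63.4, 62.3 and 79.4 CPM in the edited clone, with the third edited library far above the other two. Its log2 change of 0.34 was called (SE 0.105, edgeR adjusted p = 0.0192), but without that library it was 0.22 (edgeR adjusted p = 0.138), and it was also lost without control library 1 or 2, within a range of adjusted p from 0.000184 to 0.138 over 19 alternatives. RAD51B fell from 26.9, 28.3 and 29.9 CPM to 22.4, 22.3 and 18.1 CPM, a log2 change of -0.44 (SE 0.108, edgeR adjusted p = 0.00283). RAD51C stood at 15.7, 17.1 and 17.0 CPM in controls and 12.8, 12.5 and 14.6 CPM in edited libraries, a log2 change of -0.32 (SE 0.108, edgeR adjusted p = 0.0303). The groups did not overlap for any of these 3 genes, but RAD51C was called in only 14 of 19 alternatives, with an adjusted p up to 0.109. Its call was lost with no filter on low counts and without the second or the third control library and without the first or the second edited library. RAD51D and XRCC3, the remaining genes of these complexes, had log2 changes of 0.01 and 0.12 and were not called.

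Crosslink genes were nearly all short of the threshold in KOPN-8. SLX4 was the only one of 10 called, at 48.8, 53.1 and 55.8 CPM in controls and 64.1, 60.9 and 69.0 CPM in edited libraries, with no overlap and a log2 change of 0.30 (SE 0.0805, edgeR adjusted p = 0.00636). Without the first control library its change was 0.25 (edgeR adjusted p = 0.0545), the highest adjusted p of 19 alternatives, of which 18 kept the call. The log2 changes of the other 9 ran from -0.04 for FANCL to 0.18 for FANCA. FANCD2, the protein whose ubiquitination marks the pathway, stood at 188, 212 and 201 CPM in controls and 219, 198 and 204 CPM in edited libraries, overlapping values with a log2 change of 0.05 and a 95% interval from -0.12 to 0.21.

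BLM stood at 88.6, 95.8 and 99.0 CPM in control KOPN-8 and 122, 118 and 120.0 CPM in the edited clone, well apart, with a log2 change of 0.34 (SE 0.0773, edgeR adjusted p = 0.00134). Its dissolution partners RMI1 and RMI2 had log2 changes of 0.07 and -0.12 and were not called. POLQ stood at 85.7, 109 and 99.0 CPM in controls and 128, 119 and 123 CPM in edited libraries, also without overlap, with a log2 change of 0.33 (SE 0.0980, edgeR adjusted p = 0.0135). Without the first control library, the lowest of the 6, the POLQ change was 0.25 (edgeR adjusted p = 0.0909), at the top of a range from 7.77e-05 over 19 alternatives, and it was also lost without the first edited library, at 0.31 (edgeR adjusted p = 0.0528).

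**Figure D3:**
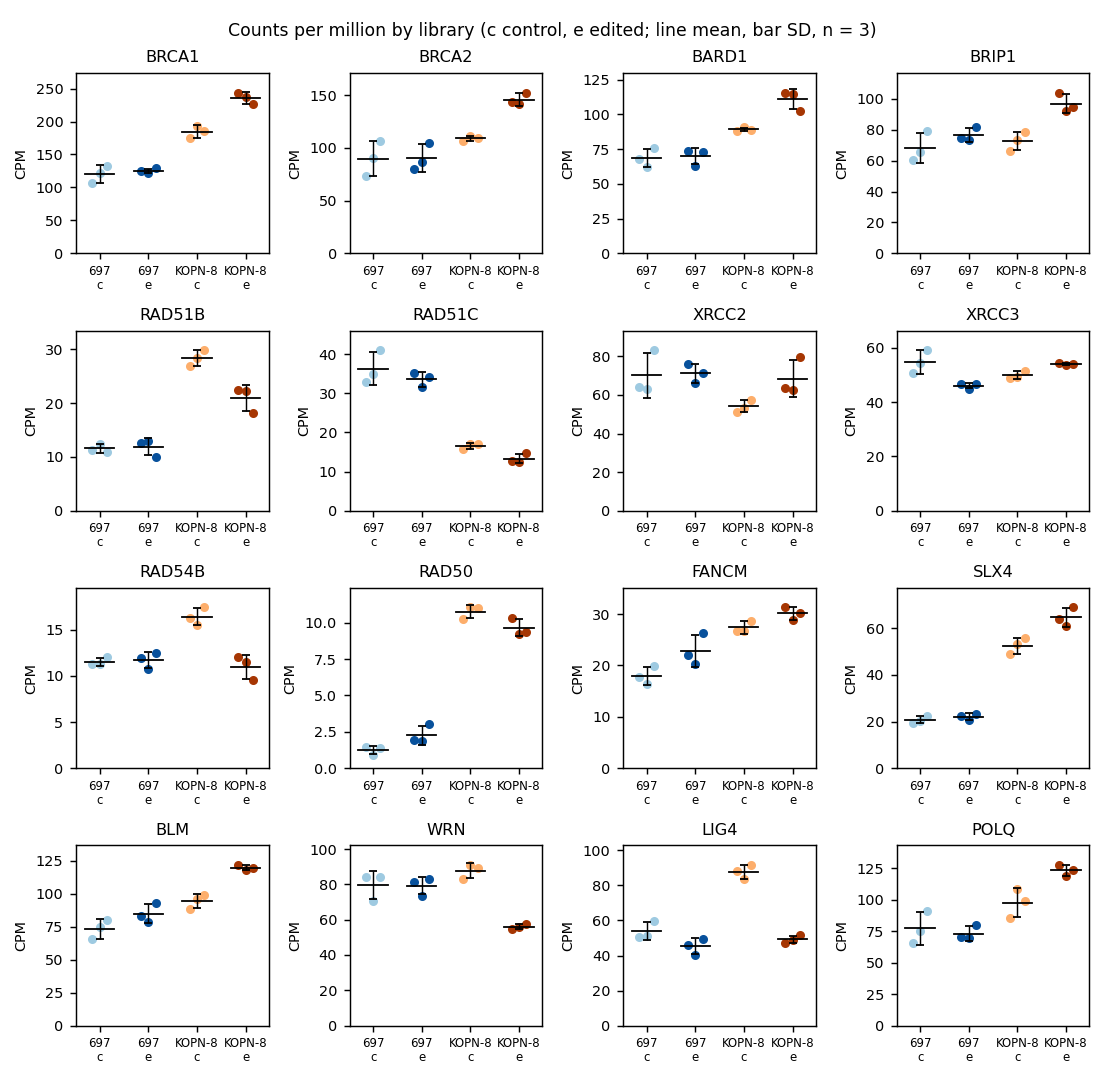
CPM (y axis, from 0) in each of the 12 libraries for the 16 genes called in either line; points are libraries, lines the group mean and bars the SD of 3 libraries, with c for control and e for edited. BRCA1, BRCA2, BARD1, BRIP1 and BLM rise and WRN and LIG4 fall between the KOPN-8 groups, and the test of the difference between the lines passed for BRCA1, WRN and LIG4 and not for BRCA2, BARD1, BRIP1 and BLM.

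Upstream sequence was searched for the 32 of the 38 genes that had an entry, and is shown for BLM and BRIP1, which rose in edited KOPN-8. These genes were picked because each holds 3 CCAAT boxes, the site of the NF-Y factor, in the 250 bases before its annotated start. XRCC3, which was not called in edited KOPN-8 (log2 change 0.12), holds more, at 216, 171, 108, 66 and 33 bases before its start. Whether the number of boxes goes with the change was not tested. The letters GCGGGAA, a site of the kind that E2F factors bind, are also present in BLM. Capitals mark CCAAT and GCGGGAA, which read ATTGG and TTCCCGC where they lie on the other strand. Both are from the RefSeq table of GRCh38.p14 and are given 5′ to 3′ on the strand of the gene, BLM at chr15:90717096-90717345 on the plus strand and BRIP1 at chr17:61863529-61863778 on the minus strand.
BLM: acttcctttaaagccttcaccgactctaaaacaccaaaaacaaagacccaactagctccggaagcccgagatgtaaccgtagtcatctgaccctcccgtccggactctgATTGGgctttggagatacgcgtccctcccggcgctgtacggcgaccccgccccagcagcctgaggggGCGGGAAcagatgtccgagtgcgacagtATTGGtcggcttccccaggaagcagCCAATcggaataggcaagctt
BRIP1: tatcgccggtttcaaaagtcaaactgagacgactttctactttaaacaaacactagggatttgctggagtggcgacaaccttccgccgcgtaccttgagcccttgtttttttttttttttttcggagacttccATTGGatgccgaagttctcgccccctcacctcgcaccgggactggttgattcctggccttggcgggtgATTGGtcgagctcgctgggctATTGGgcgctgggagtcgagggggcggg

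Both strands were searched in the 250 bases before each annotated start, and 32 of the 38 genes had an entry. Some genes have several entries, such as LIG4 with 5, and a match in any of them counted. For BRCA1 the GCGGGAA match lay only in entry 2 of 2. GCGGGAA was found in 10 of these 32 (31.2%), namely BRCA1, RAD51D, RAD52, RAD54L, FANCC, FANCG, FANCL, BLM, RMI1 and DCLRE1C. It was found in 6.66% of the 27305 genes of the table and in 10.8% of 10275 of them that were tested here. Of these 10 genes, BRCA1 and BLM were called higher in edited KOPN-8, beside 8 of the 38 genes (21.1%) and 11.5% of all genes tested. Whether the match goes with the change was not tested. CCAAT was found in 14 of the 32 (43.8%), against 37.0% and 41.6% of the same genes, and LIG4, which fell, held it as did BRCA1, BRIP1 and BLM, which rose. A match describes the letters only.

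Of the 5 genes that were lower in edited KOPN-8, 3 lie on 2 stretches of chromosome whose genes were lower together. The ends of these stretches came from an earlier analysis of these data, so their counts of lower genes are not an independent result. WRN, a helicase and exonuclease of recombination intermediates, stood at 82.8, 91.2 and 89.3 CPM in controls and 54.6, 55.9 and 57.5 CPM in edited libraries. RAD54B, a motor protein that aids strand invasion, stood at 16.3, 15.6 and 17.4 CPM against 12.03, 11.5 and 9.53 CPM. Both groups were far apart for each gene, with log2 changes of -0.65 for WRN (SE 0.0778, edgeR adjusted p = 4.76e-07) and -0.58 for RAD54B (SE 0.116, edgeR adjusted p = 0.000415). Both lie on chromosome 8, on the stretch up to ASAP1, where 282 of 341 genes with at least 1 CPM in KOPN-8 were called lower and 9 higher, with a median log2 change of -0.59.

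LIG4 stood at 88.0, 83.8 and 91.8 CPM in control KOPN-8 and 47.3, 48.7 and 51.6 CPM in the edited clone, a log2 change of -0.84 (SE 0.0826, edgeR adjusted p = 2.14e-08). It had the largest change of the 38 genes in KOPN-8, and no edited value came near a control value. LIG4 lies on chromosome 13, on the stretch from PCDH9 onward, where 66 of 82 genes were called lower and 4 higher, with a median of -0.59. A lower value than that of LIG4 was found for 26.8% of these 82 genes. BRCA2 also lies on chromosome 13, before this stretch, and was higher. The number of DNA copies of these stretches was not measured, and its part in the result was not tested.

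PRKDC, the fourth gene on these stretches, was not called. It stood at 650.0, 719 and 757 CPM in control KOPN-8 and 629, 620.3 and 638 CPM in the edited clone, without overlap, and its log2 change of -0.17 had a 95% interval from -0.32 to -0.03 (edgeR adjusted p = 0.0734). Of the 341 genes of the chromosome 8 stretch, 90.0% had a lower value than PRKDC. Over 19 alternatives its adjusted p ran from 0.0247 to 0.312. Leaving out WRN, RAD54B, LIG4 and PRKDC, 8 of the other 34 genes were higher and 2 lower (23.5% and 5.88%), with a median of 0.11. The shares of all genes off these stretches were not counted, so these counts are not read as a trait of repair genes. In 697 the same stretches had medians of 0.03 on chromosome 8 and 0.02 on chromosome 13.

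The RAD54B count is uncertain, since FSBP shares 59.1% of its exon bases on the same strand, and FSBP was itself lower in edited KOPN-8 by 1.05 on the log2 scale (edgeR adjusted p = 8.14e-07). Without RAD50, RAD54B and NHEJ1, 8 genes were higher and 4 lower in KOPN-8, and 1 was higher and 1 lower in 697, an alternative chosen after seeing the data. NHEJ1, the XLF factor that bridges ends, stood at 1.5 to 3.75 CPM in 697 and 2.83 to 4.60 CPM in KOPN-8 libraries, and was called in neither line.

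**Figure D4:**
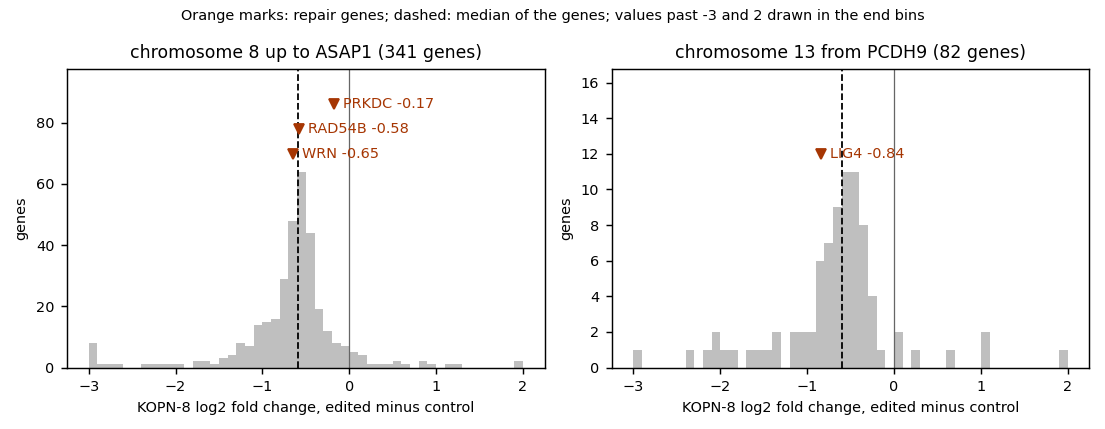
Number of genes (y axis) by log2 fold change in KOPN-8, edited minus control (x axis), for the stretches of chromosome 8 and chromosome 13 that hold repair genes; dashed lines are medians and triangles the repair genes. WRN at -0.65 and RAD54B at -0.58 lie near the chromosome 8 median of -0.59, PRKDC at -0.17 lies to its right, and LIG4 at -0.84 lies to the left of the chromosome 13 median.

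Of the 38 genes, 16 were called in 1 of the 2 clones and 22 in neither. Over all genes tested, 9.45% were called in 697 and 28.7% in KOPN-8. How many of all genes were called in only 1 clone was not counted, so the 16 are not read as a trait of repair genes. The change in KOPN-8 minus the change in 697 was tested in the same fit. It was called for 10 of the 38 genes, 5 with a higher and 5 with a lower change in KOPN-8, against 19.5% of all genes, 7.46% and 12.1% in those directions. WRN had a difference of -0.64 (SE 0.110, edgeR adjusted p = 0.000115), with 697 values of 84.3, 70.3 and 84.1 CPM in controls and 81.1, 73.7 and 83.1 CPM in edited libraries. LIG4 had a difference of -0.59 (SE 0.119, edgeR adjusted p = 0.000735) and RAD54B of -0.60 (SE 0.170, edgeR adjusted p = 0.0128). XRCC3 had a difference of 0.37 (SE 0.105, edgeR adjusted p = 0.0139), being lower in edited 697 and at 48.9, 49.2 and 51.6 CPM in control and 54.4, 53.8 and 54.2 CPM in edited KOPN-8. These 4 held in all 12 fits that left out 1 library.

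The other 6 differences depended on single libraries. FANCA, a subunit of the core complex, stood at 123, 122 and 148 CPM in control 697 and 122, 108 and 112 CPM in edited 697, then at 93.8, 97.3 and 99.5 CPM in control KOPN-8 and 108, 100.1 and 121 CPM in edited KOPN-8. Its changes of -0.20 and 0.18 were called in neither line, and their difference of 0.38 was (SE 0.116, edgeR adjusted p = 0.0225). ZNF276, which overlaps FANCA on the opposite strand, was lower in edited 697 by 0.59 (edgeR adjusted p = 0.000163) and had a change of 0.08 in KOPN-8. The FANCA difference was lost without the third 697 control, the first KOPN-8 control or the third edited KOPN-8 library.

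RAD54L, a motor protein of strand invasion, stood at 57.6, 69.6 and 72.5 CPM in control 697 and 60.3, 62.2 and 58.8 CPM in edited 697, then at 72.3, 76.5 and 75.1 CPM in control KOPN-8 and 85.4, 80.7 and 91.6 CPM in edited KOPN-8. The 697 groups overlapped and the KOPN-8 groups did not, and the difference of the changes was 0.34 (SE 0.113, edgeR adjusted p = 0.0354). LRRC41, on the opposite strand, overlaps 806 of the 3212 exon bases of RAD54L. Its log2 changes were -0.28 in 697 and -0.22 in KOPN-8 (edgeR adjusted p = 0.00753 and 0.0167). The strand setting of the counting is not given, so a part of the RAD54L reads may belong to LRRC41. RAD50, RAD51B, POLQ and BRCA1 had differences of -1.01, -0.48, 0.41 and 0.29, with edgeR adjusted p values of 0.0168, 0.043, 0.0463 and 0.0493. Of 18 alternatives, 16 kept the RAD50 difference, 9 that of RAD54L and 8 each those of RAD51B, POLQ and BRCA1. BRCA2, BARD1 and BRIP1, called in KOPN-8 and not in 697, had differences of 0.42, 0.29 and 0.24 that did not pass the test (edgeR adjusted p = 0.067, 0.0764 and 0.199). With the replicate block, although KOPN-8 libraries of the same number were not taken as pairs, those of BRCA2 and BARD1 passed, at 0.41 and 0.28 (edgeR adjusted p = 0.000363 and 0.015). Over 18 alternatives the adjusted p ran from 0.000363 to 0.145 for BRCA2 and from 0.015 to 0.174 for BARD1. XRCC2, SLX4, BLM and RAD51C, also called in KOPN-8 and not in 697, had differences of 0.31, 0.21, 0.13 and -0.21 (edgeR adjusted p = 0.161, 0.28, 0.465 and 0.372). Of these 4, XRCC2 passed with the block, at 0.30 (edgeR adjusted p = 0.0359, in a range from 0.0359 to 0.404 over 18 alternatives).

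The control difference between the lines and the change in edited KOPN-8 can be set side by side, with the caution that both use the control KOPN-8 libraries. SLX4 was higher by 1.35 in control KOPN-8 than in control 697 and changed by 0.30 in the edited clone, and for BRCA1 the values were 0.62 and 0.35. RAD51B had values of 1.29 and -0.44, and LIG4 of 0.71 and -0.84. RAD54B had values of 0.52 and -0.58, and RAD51C of -1.13 and -0.32. For BRCA2 they were 0.28 and 0.42, for BARD1 0.38 and 0.32, for BLM 0.37 and 0.34 and for POLQ 0.35 and 0.33. XRCC2 was lower in control KOPN-8 and higher in the edited clone, at -0.37 and 0.34. Edited KOPN-8 held 47.3 to 51.6 CPM of LIG4, within the 40.3 to 59.7 CPM of the 697 libraries. The stretches of chromosomes 8 and 13 had median log2 differences of 0.40 and 0.77 between control KOPN-8 and control 697.

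Further genes of these pathways were taken from a list of 73, of which 70 were tested. In 697, 5 of the 70 (7.14%) were called, each higher in the edited clone, against 9.45% of all genes. These were ABRAXAS1, a BRCA1-A complex scaffold (log2 change 0.38), SAMHD1, a nucleotide hydrolase that also aids resection (0.84), TP53BP1, which restrains resection (0.25), PARPBP, an inhibitor of recombination (0.32), and WDR48, the partner of the FANCD2 deubiquitinase USP1 (0.25). In KOPN-8, 18 were higher and 8 lower (25.7% and 11.4%, against 11.5% and 17.2% of all genes). FAN1, a nuclease of crosslink repair, stood at 21.5, 21.3 and 21.0 CPM in controls and 9.75, 10.00 and 11.7 CPM in edited libraries (log2 change -1.02, SE 0.0993, edgeR adjusted p = 1.83e-08). DCLRE1A, the SNM1A crosslink nuclease, fell by 0.87, and GEN1, a Holliday junction resolvase, and FIGNL1, an AAA ATPase of recombination, were higher by 0.61 and 0.70. NBN, the third subunit of the complex with MRE11 and RAD50, and SPIDR, a recombination scaffold, fell by 0.49 and 0.69, both on the chromosome 8 stretch.

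ABRAXAS1 was called in both clones in opposite directions, higher in 697 and lower in KOPN-8 by 0.33. TP53BP1 was higher in both, with 85.4, 86.9 and 84.1 CPM in control 697, 97.9, 99.7 and 107 CPM in edited 697, 87.5, 94.3 and 88.5 CPM in control KOPN-8 and 119.7, 118 and 115 CPM in edited KOPN-8. Its groups did not overlap in either line, and the difference of 0.14 between the changes of 0.25 and 0.38 did not pass the test (SE 0.091, edgeR adjusted p = 0.34). POLM, a polymerase of end joining, and RECQL, a RecQ helicase, were higher in edited KOPN-8 by 0.48 and 0.31.

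Many repair genes are transcribed with DNA replication, so genes of the cell cycle were read beside them. Of 49 S-phase genes, 23 were higher and 6 lower in edited KOPN-8 (46.9% and 12.2%, against 11.5% and 17.2% of all genes), with a median log2 change of 0.19. In 697, 2 were higher and 1 lower (6.12% called, against 9.45% of all genes), with a median of 0.03. Of 48 genes of G2 and M phase, 4 were higher and 5 lower in KOPN-8 (8.33% and 10.4%), with a median of 0.04. In 697, 5 of these were higher and 2 lower (10.4% and 4.17%, against 4.85% and 4.6% of all genes), with a median of 0.09. UHRF1, an S-phase gene, was higher by 0.70 in edited KOPN-8, and UBE2C, a G2 and M gene, was lower by 2.25 in edited 697, against the median of its list. Between the control groups, 34 S-phase genes were higher and 4 lower in KOPN-8 (69.4% and 8.16%), and 41 G2 and M genes were higher and 1 lower (85.4% and 2.08%), against 36.6% and 36.7% of all genes. The share of cells in each phase was not measured, and its part in the changes of BRCA1, BRCA2, BARD1, BRIP1, BLM and POLQ was not tested.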

How the data were processed

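The authors deposited whole-number read counts by gene symbol. The submitters' processing notes name Trimmomatic, STAR, DESeq2 and hg19; no version, counter or annotation is given in the sources used here. Per the labels' protocols, libraries were stranded and poly-A selected. A normalized table was not used.

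The 38 genes and all lists were chosen with earlier results of these data known, so lists are described by counts and medians without a list test. The fit used edgeR 4.0.16 in R 4.3.3, with TMM scaling, the filterByExpr filter, a robust quasi-likelihood F test over 12 libraries with 1 mean per group, and Benjamini-Hochberg adjustment over the 15218 genes kept, which held 99.9% of the counts in the library with the lowest share. Calls are adjusted p values under 0.05. CPM uses TMM-scaled library sizes. Pairs of replicate libraries had a chi-square per degree of freedom between 2.92 and 10.8, above sampling noise.

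Alternatives were DESeq2 1.42.0, other scalings, no filter, a fit of 1 line, a replicate block, a threshold of 0.01 and leaving out each library. Same-numbered 697 libraries deviated together (r = 0.105, 0.207 and 0.104, each above 0.1) and count as pairs on these values only; KOPN-8 libraries (0.0508, 0.0362 and 0.0743) do not. This rests on the prior count of 2 in the log scale: with 0.5 the 697 values were 0.0656, 0.136 and 0.0691, which would not count as pairs. Chromosome, gene order, exon length and overlaps came from GENCODE for GRCh38, not the authors' build, so it gives no coordinates here. The ends of the stretches on chromosomes 8 and 13 came from an earlier analysis of these data, and their genes were limited to those with at least 1 CPM in KOPN-8 after values were seen. Named genes were all members called in a comparison, with up to 10 called genes per line from the lists of other repair genes. Scripts were tested on simulated data. The results on 2 genes are not reported here.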

Additional observations from a re-analysis of the deposited data

Results flagged for a closer look

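Of the 38 repair genes, 10 changed differently in the 2 clones by a test of the difference itself, the KOPN-8 change minus the 697 change. The same test called 19.5% of all genes. On the log2 scale, the difference was negative for WRN (-0.64), LIG4 (-0.59), RAD54B (-0.60), RAD50 (-1.01) and RAD51B (-0.48). It was positive for XRCC3 (0.37), FANCA (0.38), RAD54L (0.34), POLQ (0.41) and BRCA1 (0.29). WRN, LIG4, RAD54B and XRCC3 kept this result in each of 18 alternative fits, while BRCA1, POLQ and RAD51B each lost it in 10 of the 18. RAD50 and RAD54B share exons with another gene of the same strand, and WRN, RAD54B and LIG4 lie on the stretches of chromosomes 8 and 13 whose genes were lower together in edited KOPN-8. XRCC3, FANCA and RAD54L share exon bases with a protein-coding gene of the opposite strand (KLC1, ZNF276 and LRRC41). The strand setting of the counting is not given.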

How the results depend on the processing

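Single genes were followed under the alternatives only in comparisons where the main fit gave them an unadjusted edgeR p under 0.05. Of these 1250 values none changed direction, 1128 stayed on their side of the threshold, 89 fell short of it and 33 passed it anew. Genes so chosen lay away from no change, and most alternatives reuse the same libraries, so a kept direction is a weak check. In 697 the 3 calls (2 higher, 1 lower) became 0 in the fit of 697 alone and 0 at a threshold of 0.01, where 806 of all genes were called; with no filter 0 genes were lower. Leaving out 1 library gave 0 to 3 calls (0 to 2 higher, 0 to 1 lower), and without the 3 genes with same-strand overlap, chosen after seeing the data, 1 was higher. In KOPN-8 the 13 calls became 11 to 15 (5 to 10 higher) on leaving out 1 library, the 5 coming without control library 1, and 2 genes were lower off the stretches of chromosomes 8 and 13. Of the 10 differences between the clones, 5 to 10 were called on leaving out 1 library (1 to 6 higher), and 2 at a threshold of 0.01 (0 higher, 2 lower, 1902 of all genes). TMM scaling without chromosomes 8 and 13 left 3 higher, genes off those stretches left 2 lower, and genes without overlap left 3 lower. The causes were not tested, beyond the fewer genes or libraries that some alternatives hold.

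For 697, the replicate block, which was fitted to both lines at once, gave 5 calls (2 lower) and 2319 over all genes. In both lines together it gave 8 differences higher in KOPN-8, and in KOPN-8, whose numbers were not taken as pairs, 16 calls against 13 and 5348 of all genes against 4370. Between the control groups, 25 to 28 genes were called on leaving out 1 library, and upper-quartile scaling, which shifted the median of all genes by -0.09, lost the calls of BRCA2, FANCG, MRE11 and RMI1. The design of 3 libraries per group and 1 clone per line and the low counts of RAD50 and NHEJ1 limit the precision.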
